A study of Homo sapiens with 34 samples.

Results

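The integrin subunits ITGAV, ITGA2, ITGA3, ITGA4, ITGA5, ITGA6, ITGB1, ITGB3, ITGB5 and ITGB8 were followed in hTERT-RPE1 cells, a human retinal pigment epithelial line immortalised with telomerase, by SLAM-seq, which marks RNA with 4-thiouridine (s4U) and reads it as T>C conversions. A gene was taken as the sum of the 3′ UTR intervals whose name lists its symbol and no other, which gave these 10 genes of 19041 in all. In the knockdown line doxycycline at 0.5 µg/mL induced an shRNA that targets the CCND1 3′ UTR (CCND1 encodes the G1 cyclin D1). In the overexpression line it induced the same shRNA together with a FLAG-tagged CCND1 allele that the shRNA spares. Both lines were made with lentivirus and sorted or selected, the study calls them polyclonal for CCND1 expression, and no uninduced cells were analysed here. Per the study, knockdown enlarges the cells and overexpression makes them smaller, and the question was whether the turnover of mRNA depends on cell size. Labelled cells received 10 µM s4U from day 4 for 24 h with medium exchanged every 3 h and were chased in 1 mM uridine for 0 to 1440 min, and unlabelled cells received 10 µM uridine instead. There were 34 libraries, 17 per line, which form 4 time courses (2 per line, each with its own unlabelled library).

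Integrins are transmembrane receptors made of an α and a β subunit that bind the extracellular matrix outside the cell and link it to actin inside. The β1 subunit pairs with many α subunits: α3 and α6 give laminin receptors, α2 a collagen receptor, α5 a fibronectin receptor and α4 a receptor for VCAM1 and fibronectin. The αV subunit pairs with β1, β3, β5 or β8 to bind matrix proteins with an RGD motif, such as vitronectin, and the αV and β8 pair also binds latent TGFβ. In the retinal pigment epithelium, integrins hold the cells to their basement membrane, and the αV and β5 pair serves in the uptake of shed photoreceptor outer segments.

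The 3′ end reads of each subunit came mostly from its most-read 3′ UTR interval, which carried 84.9% (ITGB3) to 100% (ITGB8) of the gene's reads. These intervals, on hg38, ran from 660 bases for ITGA4 to 5757 bases for ITGB8, and their GC content ran from 29.6% for ITGAV to 59.0% for ITGA3, against a median of 42.9% over 16793 genes. The AU-rich heptamer TATTTAT, the core of a class of elements known to bind decay factors, was searched on the transcribed strand only, and each match also holds the pentamer ATTTA. It stood in 7 of the 10 members and in 32.8% of all intervals, or in 56.3% of those of 2000 to 6000 bases. ITGB8 held 6 copies, ITGAV and ITGB1 2 each, ITGA2, ITGA3, ITGA4 and ITGA6 1 each, and ITGA5, ITGB3 and ITGB5 none. The windows below are shown because they include the members with the shortest and the longest fitted half-lives. Capitals mark the heptamer.
ITGB8 (chr7:20413095-20413124, plus strand): cagtgcacacgTATTTATaaacatttgtta
ITGB8 (chr7:20415579-20415608, plus strand): tctgttttatgTATTTATtaaagagctgac
ITGA2 (chr5:53091148-53091177, plus strand): agtgataatttTATTTATaaactaggtaaa
ITGA6 (chr2:172504887-172504916, plus strand): tttgtatatggTATTTATtttttcttttct
ITGA3 (chr17:50089303-50089332, plus strand): ccctttcttccTATTTATcataagttatgc
ITGB1 (chr10:32900408-32900437, minus strand): tttactgaagtTATTTATtaaatatgccta
In ITGA5 and ITGB5, with no heptamer, capitals mark the polyadenylation hexamer AATAAA instead, which stood in the last 50 bases of 6 members and of 62.0% of all intervals, and whose place sets where the 3′ end reads fall.
ITGA5 (chr12:54395283-54395312, minus strand): tgttgcaagtgcAATAAAtctgacccagtg
ITGB5 (chr3:124761953-124761982, minus strand): tgaattgagaaaAATAAAtgtaattttgga
A link between the heptamer and half-life was not tested. As given below, the ITGB8 fits rest on few conversions and most ITGB1 reads were multimapped. ITGB5, with no heptamer, had long fitted half-lives.

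The libraries held 14712332 to 44480703 3′ UTR reads, of which the members took 0.283% to 0.409% in the knockdown line and 0.128% to 0.232% in the overexpression line. Over the 34 libraries the reads per member ran from 277 for ITGA4 and 1262 for ITGB3 to 1797846 for ITGB1, and 95.3% of the ITGB1 reads were multimapped, against 0.11% to 6.33% in the other members. Levels of ITGB1 therefore include reads that also match elsewhere. Most markers of differentiated retinal pigment epithelium were near 0 in both lines: 7 of 9, RPE65 among them, had a median under 1 CPM, and only OTX2 and MITF were above it. The mesenchymal markers VIM, CDH2 and TAGLN summed to medians of 10931 and 10571 CPM in the knockdown and overexpression lines. All 6 blood markers and all 4 endothelial markers had medians under 1 CPM. CPM here means counts scaled to the 3′ UTR reads of the library, with TMM scaling. Across 8398 genes, 3 libraries stood apart from the mean of their line: the 720 min library of overexpression course 1 (r = 0.864) and the unlabelled libraries of knockdown course 1 (r = 0.887) and overexpression course 1 (r = 0.918). Their deviations ran with GC content (r of -0.50, -0.61 and -0.26 across genes). This was not limited to them: in the other libraries r ran from -0.35 (knockdown course 1 at 360 min) to 0.48 (knockdown course 2 at 45 min). In the 720 min library ITGA3 stood at 71.7 CPM against 164 to 269 in the other overexpression libraries, ITGA5 at 115 against 191 to 341, and ITGA6, with a GC content of 36.6%, at 147 against 41.7 to 96.4. ITGB1, with a GC content of 33.6%, was low there as well, at 766 CPM against 1195 to 1434. The part of GC content in these values was not tested.

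Of the 10 subunits, 7 were higher in the knockdown line than in the overexpression line and none was lower at an adjusted p under 0.05. The 7 were the laminin receptor subunits ITGA3 and ITGA6, the collagen receptor subunit ITGA2, the fibronectin receptor subunit ITGA5 and the β subunits ITGB1, ITGB5 and ITGB8. Over all 13165 genes tested, 21.9% differed between the lines, 11.2% being higher and 10.7% lower in the knockdown line. The median log2 difference was 0.78 over the 10 members, all of which passed the filter on low counts, and -0.0077 over all genes. The test was edgeR's quasi-likelihood test on reads summed over the 6 samples that every course holds, 2 courses against 2, and its p-values measure the spread between courses, which the labels do not tie to separate cultures. CPM is a share of the 3′ UTR reads, so the RNA per cell was not measured, and fewer cells expressing a gene cannot be told apart from less RNA per cell.

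**Figure D1:**
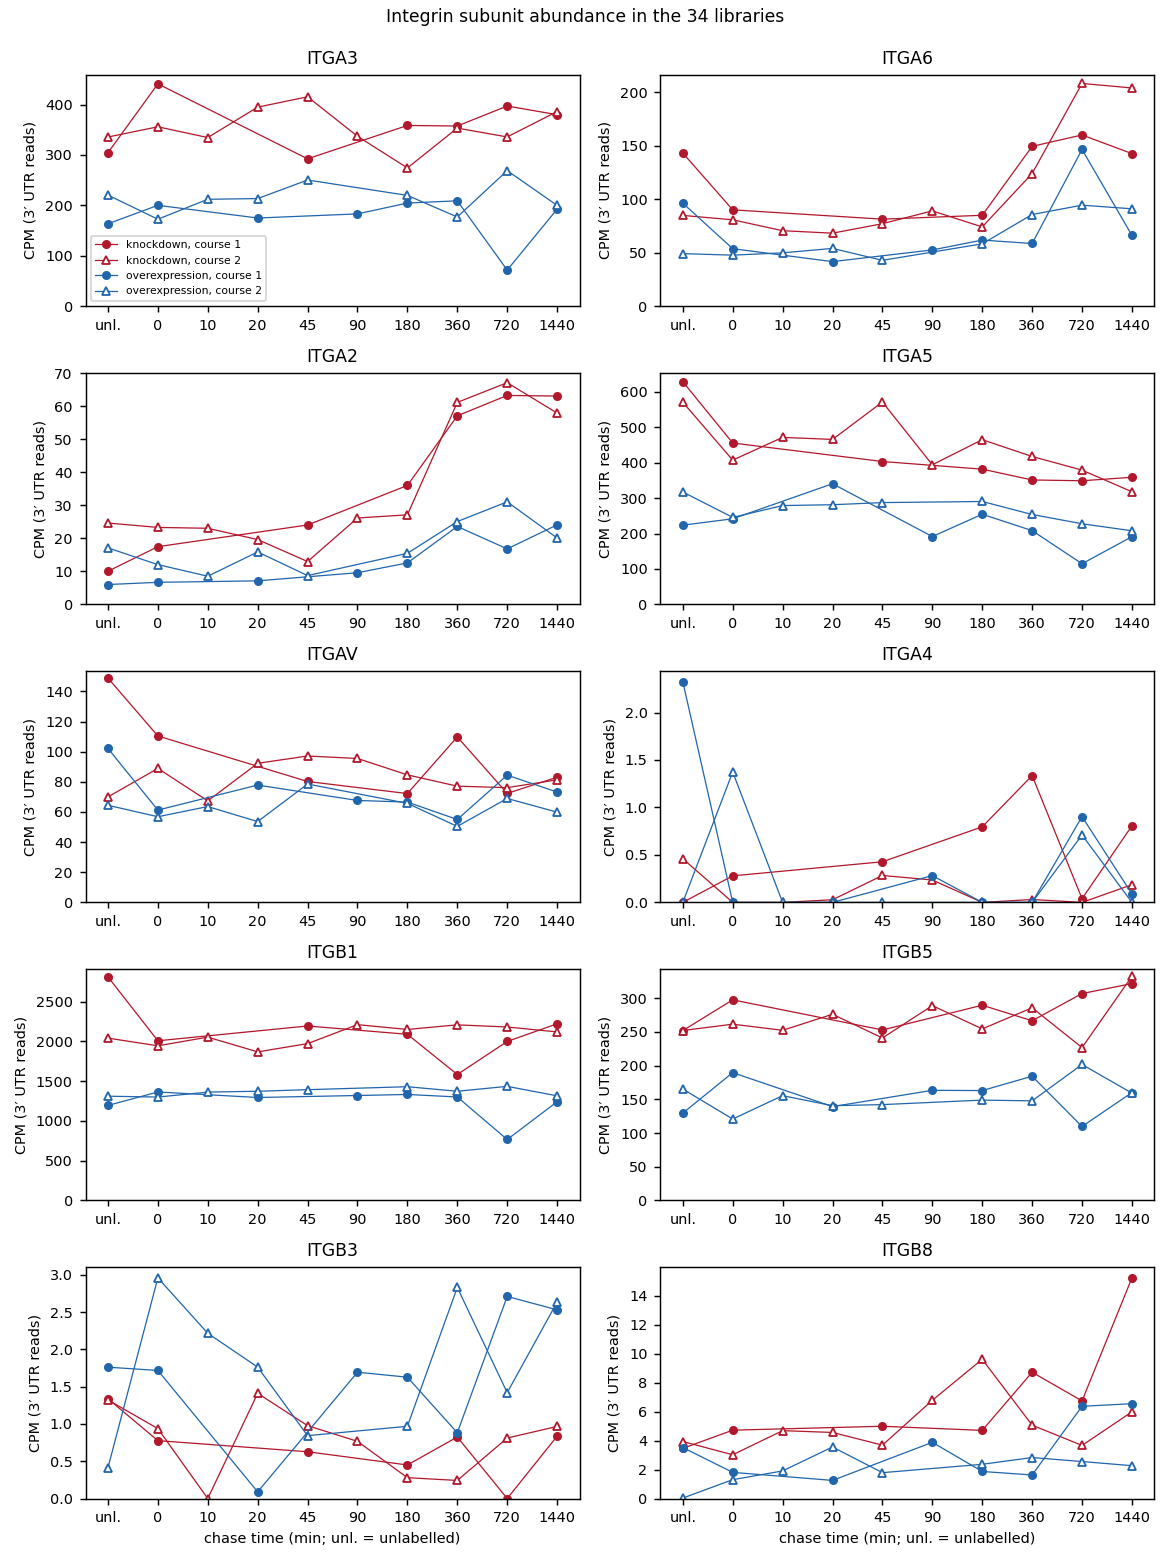
CPM of the 10 subunits in each of the 34 libraries (y axis, from 0) against chase time in min (x axis, not to scale, unlabelled libraries first). Red marks the knockdown line and blue the overexpression line, filled circles course 1 and open triangles course 2. The red and blue points of ITGA3, ITGB1 and ITGB5 do not overlap. ITGA2 and ITGA6 are higher in both lines at 360 to 1440 min than at 0 to 45 min.

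Among the laminin receptor subunits, ITGA3 lay between 274 and 441 CPM in the knockdown libraries (median 356) and between 71.7 and 269 CPM in the overexpression libraries (median 200). Every knockdown library was thus above every overexpression library, as it was for ITGB1 and ITGB5 (3 of 10 members, against 1.41% of all genes in that direction and 2.58% in either). The course values of ITGA3 were 373 and 342 CPM against 182 and 216 CPM, a log2 difference of 0.85 ± 0.13 (SE, n = 2 and 2 courses, edgeR adjusted p = 0.0015). ITGA6 ranged from 68.4 to 208 CPM (median 89.2) in the knockdown line and from 41.7 to 147 CPM (median 58.4) in the overexpression line. The ranges of ITGA6 overlapped, and its course values were 127 and 124 CPM against 74.4 and 72.2 CPM. These sums include the libraries that stood apart, where ITGA6 was high. In overexpression course 1 it stood at 147 CPM at 720 min and 96.4 CPM unlabelled, and in knockdown course 1 at 143 CPM unlabelled. The log2 difference of ITGA6 was 0.78 ± 0.12 (SE, edgeR adjusted p = 0.0015). It was 0.79 with the unlabelled libraries left out of the sums and 0.82 with the 720 min libraries left out.

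The collagen receptor subunit ITGA2 had the largest relative difference among the α subunits of the members. It ranged from 10.0 to 67.1 CPM (median 26.1) in the knockdown line and from 5.99 to 31.0 CPM (median 15.4) in the overexpression line, and the ranges overlapped. Its course values were 40.5 and 41.8 CPM against 15.7 and 20.6 CPM, 2.27-fold higher in the knockdown line (log2 1.18 ± 0.16 SE, edgeR adjusted p = 0.00076).

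ITGA5, the α subunit of the classical fibronectin receptor, lay between 318 and 629 CPM (median 407) in the knockdown line and between 115 and 341 CPM (median 246) in the overexpression line. The courses gave 421 and 432 CPM against 210 and 263 CPM, a log2 difference of 0.85 ± 0.14 (SE, edgeR adjusted p = 0.0017). ITGAV, which pairs with β1, β3, β5 or β8, lay between 67.3 and 149 CPM (median 83.0) in the knockdown line. In the overexpression line ITGAV lay between 50.4 and 102 CPM (median 65.7). Its courses gave 99.1 and 80.3 CPM against 70.1 and 62.5 CPM, and its log2 difference of 0.44 ± 0.14 (SE) missed the threshold (edgeR adjusted p = 0.053). That difference passed with the unlabelled libraries left out of the sums (log2 0.42, adjusted p = 0.018), with the 720 min libraries left out (log2 0.52, adjusted p = 0.024), without knockdown course 2 (log2 0.58, adjusted p = 0.024) and under DESeq2 (log2 0.44, adjusted p = 0.021). It missed the threshold without knockdown course 1 (log2 0.28, adjusted p = 0.34), without overexpression course 1 (log2 0.52, adjusted p = 0.083) and without overexpression course 2 (log2 0.37, adjusted p = 0.20). ITGA4 was nearly silent: 5 of 17 knockdown and 11 of 17 overexpression libraries held 0 reads, and no library was above 2.32 CPM.

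Among the β subunits, ITGB1, the common partner of α2, α3, α5 and α6, lay between 1583 and 2810 CPM (median 2089) in the knockdown line and between 766 and 1434 CPM (median 1319) in the overexpression line. Its courses gave 2126 and 2103 CPM against 1230 and 1386 CPM (log2 0.69 ± 0.12 SE, edgeR adjusted p = 0.0026). ITGB5 lay between 227 and 332 CPM (median 266) in the knockdown line and between 110 and 202 CPM (median 155.4) in the overexpression line, without overlap. Its courses gave 289 and 269 CPM against 162 and 161 CPM (log2 0.79 ± 0.12 SE, edgeR adjusted p = 0.0013).

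ITGB8, the partner of αV in TGFβ activation, was low in both lines, at 3.02 to 15.2 CPM (median 4.72) in the knockdown line and 0.032 to 6.55 CPM (median 2.27) in the overexpression line, where 1 unlabelled library held 1 read. Its courses gave 7.43 and 5.03 CPM against 3.49 and 1.93 CPM (log2 1.20 ± 0.33 SE, edgeR adjusted p = 0.026). The call of ITGB8 was lost without knockdown course 1 (log2 0.90, adjusted p = 0.11) and without overexpression course 2 (log2 0.85, adjusted p = 0.070). ITGB3, another β partner of αV, pointed the other way at very low levels. Its courses gave 0.72 and 0.78 CPM in the knockdown line against 1.85 and 1.82 CPM in the overexpression line. Its log2 difference of -1.29 ± 0.48 (SE) missed the threshold under edgeR (adjusted p = 0.079) and passed under DESeq2 (adjusted p = 0.025) and with the unlabelled libraries left out (log2 -1.65, adjusted p = 0.023). CCND1 itself stood at 2.54-fold higher reads in the knockdown line (log2 1.35 ± 0.13 SE, edgeR adjusted p = 0.00015). The sources used here do not say whether the added allele carries the 3′ UTR that these reads count, so this value checks neither label.

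**Figure D2:**
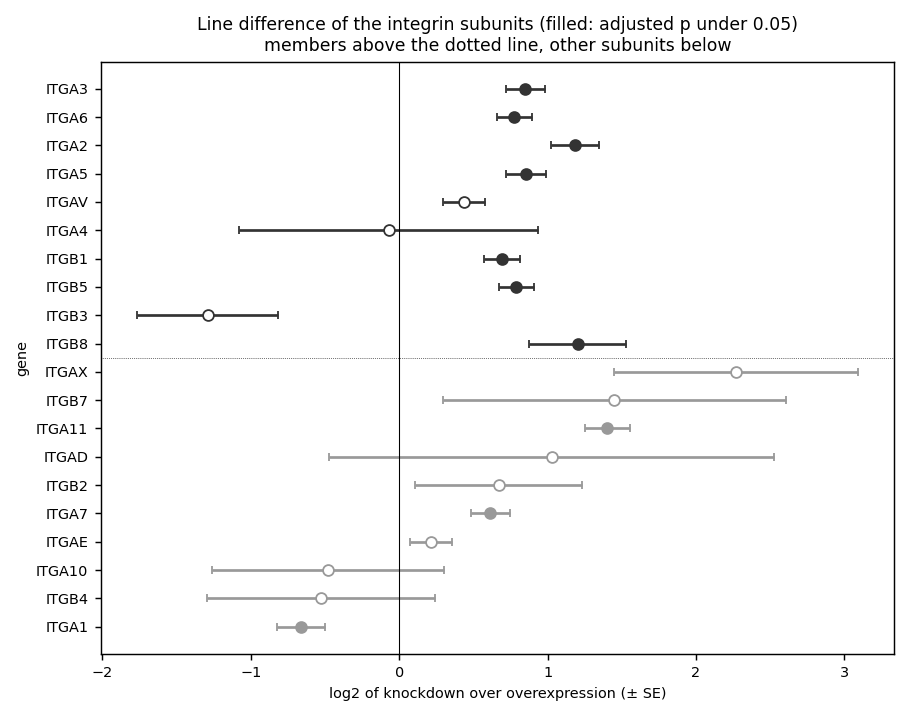
Log2 of knockdown over overexpression with its SE (x axis) for the 10 subunits, above the dotted line, and for the 10 other integrin subunits that passed the filter on low counts, below it. Filled points have an edgeR adjusted p under 0.05: 7 members and ITGA11 and ITGA7 lie to the right of 0, and ITGA1 to the left.

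The other 16 integrin subunits of the genome served as the nearest comparison. Of these, 10 passed the filter on low counts, 2 were higher and 1 was lower in the knockdown line (11.2% and 10.7% over all genes). The collagen receptor subunit ITGA11 was higher, at 89.7 ± 5.7 CPM against 33.9 ± 5.8 CPM (SD, n = 2 courses each, log2 1.40 ± 0.15 SE, edgeR adjusted p = 0.00022). So was the laminin receptor subunit ITGA7, at 94.2 ± 9.5 CPM against 61.6 ± 0.7 CPM (log2 0.61 ± 0.13 SE, adjusted p = 0.0082). The collagen receptor subunit ITGA1 was lower, at 9.73 ± 0.22 CPM against 15.4 ± 0.3 CPM (log2 -0.66 ± 0.16 SE, adjusted p = 0.016). The collagen-binding α subunits therefore moved in opposite directions. ITGAE, at 85.0 and 73.3 CPM, gave log2 0.21 ± 0.14 (SE, adjusted p = 0.32). The other 6, ITGA10, ITGAD, ITGAX, ITGB2, ITGB4 and ITGB7, had course means under 2 CPM and adjusted p-values of 0.074 to 0.72.

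The matrix ligands of the integrins included larger differences than the receptors. Of 36 listed ligands 28 were tested, 14 were higher and 4 lower in the knockdown line (11.2% and 10.7% over all genes), with a median log2 of 0.71. FN1, the fibronectin bound by α5 and β1, stood at 4701 CPM against 1540 CPM (log2 1.61 ± 0.12 SE, edgeR adjusted p = 5.7e-05). THBS1, a matricellular thrombospondin, stood at 936 CPM against 275 CPM (log2 1.77 ± 0.14 SE, adjusted p = 7.0e-05). LAMA4, a laminin α chain, and SPP1, the RGD protein osteopontin, gave log2 values of 3.13 ± 0.19 and 3.16 ± 0.29 (SE, adjusted p of 1.2e-05 and 0.00011). The 4 lower ligands were NID1 (log2 -1.15 ± 0.16 SE), TNC (log2 -0.60 ± 0.14), CYR61 (log2 -0.58 ± 0.15) and LAMA2. The laminin α chain LAMA2 gave log2 -3.46 ± 1.02 at very low levels (0.094 against 1.05 CPM).

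The intracellular partners had lower list medians. Of 39 tested activators and adaptors, 9 were higher and none lower (11.2% and 10.7% over all genes), with a median log2 of 0.11. These included the focal adhesion adaptor PXN (log2 0.80 ± 0.14 SE, edgeR adjusted p = 0.0030) and the tensins TNS1 (log2 0.61 ± 0.12) and TNS3 (log2 0.64 ± 0.13), with RSU1, a part of the ILK complex, at log2 0.50 ± 0.12. Of 13 inhibitors and endocytic traffic genes, 3 were higher and none lower (11.2% and 10.7% over all genes). DAB2, a clathrin adaptor that takes integrins into the cell, had the largest of these differences (446 against 129 CPM, log2 1.79 ± 0.12 SE, adjusted p = 1.9e-05), and RAB11A and NUMB gave log2 0.54 ± 0.12 and 0.47 ± 0.14. Of 13 membrane partners 2 were higher and 1 lower (11.2% and 10.7% over all genes). The tetraspanin CD63 (log2 0.71 ± 0.13 SE) and the caveolin CAV1 (log2 0.59 ± 0.13) were higher, and EMP2 was lower (log2 -0.74 ± 0.13). Among markers of cell type, the keratins KRT7, KRT8 and KRT18 were higher in the knockdown line (log2 1.07, 0.92 and 0.63). So were MITF, a transcription factor of pigment cells (76.0 against 39.0 CPM, log2 0.96, edgeR adjusted p = 0.0018), and the actin-binding TAGLN (log2 0.41, adjusted p = 0.042). OTX2 pointed the other way and missed the threshold (1.81 against 3.20 CPM, log2 -0.82, edgeR adjusted p = 0.097). VIM and CDH2 gave log2 0.030 and -0.038, and KRT19, EPCAM and CDH1 had medians under 1 CPM in both lines. The part of these markers in the integrin differences was not tested.

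**Figure D3:**
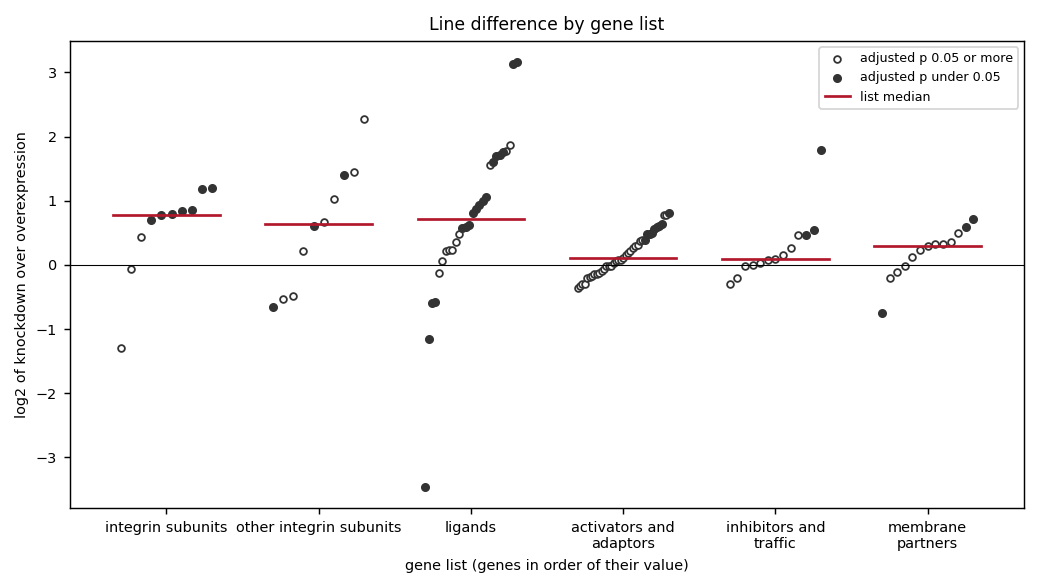
Log2 of knockdown over overexpression (y axis) for every tested gene of each list (x axis, genes in order of value). Filled points have an edgeR adjusted p under 0.05 and red bars are list medians, which run from 0.78 for the 10 subunits and 0.71 for the ligands to 0.11 for the adaptors and 0.086 for the inhibitors and traffic genes.

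Over the chase, ITGA2, ITGA6 and ITGB8 rose and no member fell under edgeR with the line as the covariate. ITGA5 fell under DESeq2 and with the course as a block, as given below. The comparison set 1440 min against 0 min over all 4 courses with the line as a covariate (edgeR, 11927 genes), and 9 members passed the filter on low counts. Of those 9, 3 rose, while 4.63% of all genes changed, 2.36% rising and 2.27% falling. The median log2 change was 0.10 over the 9 members and 0.0035 over all genes. The correlation of library deviation with GC content was lower at 1440 min than at 0 min in every course. In knockdown courses 1 and 2 it went from 0.16 and 0.31 to -0.0029 and -0.066. In overexpression courses 1 and 2 it went from 0.12 and 0.23 to -0.017 and 0.15. GC content was 32.5% to 37.9% in the 3 members that rose and 55.6% in ITGA5. It was 29.6% in ITGAV, 33.6% in ITGB1 and 59.0% in ITGA3, none of which was called. Its part in the chase changes was not tested.

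ITGA2 stood at 17.5, 23.3, 6.66 and 12.01 CPM at 0 min in knockdown courses 1 and 2 and overexpression courses 1 and 2. At 1440 min the same courses gave 63.0, 57.9, 24.0 and 20.1 CPM. ITGA2 was thus higher at 1440 min in 4 of 4 courses, as were 13.1% of all genes, and its log2 change was 1.40 ± 0.19 (SE, edgeR adjusted p = 3.5e-05). At 360 min it already stood at 57.1, 61.1, 23.6 and 25.1 CPM, a log2 change of 1.45 ± 0.19 from 0 min (SE, adjusted p = 0.00034). ITGA2 was the only member among the 74 genes (0.623%) that rose by 360 min. At 180 min its values were 36.0, 27.1, 12.5 and 15.4 CPM, between those of 0 and 360 min in all 4 courses.

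ITGA6 stood at 90.2, 80.9, 53.8 and 47.8 CPM at 0 min and at 143, 204, 66.3 and 91.2 CPM at 1440 min in the same order of courses. Its log2 change was 0.82 ± 0.14 (SE, edgeR adjusted p = 0.00058), with a higher value at 1440 min in 4 of 4 courses. At 360 min its log2 change was 0.59 ± 0.14 (SE, adjusted p = 0.062), which passed under DESeq2 (adjusted p = 0.0095). For ITGA2 and ITGA6, all libraries of 360 to 1440 min lay above all libraries of 0 to 45 min in each line (6 against 6), a pattern that 0.31% of all genes showed. ITGA6 was also high in the unlabelled libraries that stood apart (143 and 96.4 CPM), which do not enter this comparison.

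ITGB8 went from 4.72, 3.02, 1.81 and 1.30 CPM at 0 min to 15.2, 5.98, 6.55 and 2.27 CPM at 1440 min (log2 1.47 ± 0.41 SE, edgeR adjusted p = 0.037). Its call was lost without knockdown course 1 (adjusted p = 0.25), without knockdown course 2 (adjusted p = 0.070) and without overexpression course 1 (adjusted p = 0.14). ITGA5 went from 456, 407, 242 and 246 CPM at 0 min to 359, 318, 191 and 208 CPM at 1440 min. Its log2 change of -0.33 ± 0.10 (SE) missed the threshold under edgeR (adjusted p = 0.064) and passed under DESeq2 (adjusted p = 0.0092). It also passed under edgeR with the course as a block (log2 -0.33, adjusted p = 0.032). ITGA3, ITGAV, ITGB1, ITGB3 and ITGB5 gave log2 changes of -0.060 to 0.13 with adjusted p-values of 0.65 to 1.00.

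Tested within the knockdown line alone (2 libraries against 2), ITGA2 rose by a log2 change of 1.56 (edgeR adjusted p = 0.00066) and ITGA6 by 1.01 (adjusted p = 0.0067). Within the overexpression line alone the log2 changes were 1.23 (adjusted p = 0.10) and 0.62 (adjusted p = 0.21). A test of whether the lines differed in this chase change passed for no member: the difference was 0.33 ± 0.36 (SE) for ITGA2, 0.39 ± 0.27 for ITGA6, -0.45 ± 0.25 for ITGAV and -0.040 ± 0.78 for ITGB8 on the log2 scale, with edgeR adjusted p-values of 0.94 to 1.00. That test called 2 of 12280 genes (0.0163%) and 721 at an unadjusted p under 0.05, and DESeq2 called 9.

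The s4U label itself was compared at 0 min with the unlabelled libraries. The edgeR test called 0 of 11826 genes (0.0%), 402 at an unadjusted p under 0.05, and DESeq2 called 2. None of the 10 members had an unadjusted p under 0.05, and 2 of the 4 unlabelled libraries were among those that stood apart.

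Over all genes, 2.27% fell and 2.36% rose from 0 to 1440 min. Of the partner lists, 6 of 26 tested ligands fell and none rose. The rise of ITGA7, at log2 0.51 ± 0.11 (SE, edgeR adjusted p = 0.0080), was the only call among the 8 other integrin subunits tested. The matricellular genes CTGF (log2 -0.98 ± 0.11) and THBS1 (log2 -1.51 ± 0.18) and the basement membrane collagens COL4A1 (log2 -0.96 ± 0.15) and COL4A2 (log2 -0.52 ± 0.11) were among those that fell. Of 39 activators and adaptors 6 fell and none rose, including the kindlin FERMT2 (log2 -0.89 ± 0.13), TNS1 (log2 -0.90 ± 0.14), ZYX (log2 -0.68 ± 0.11) and TGFB1I1 (log2 -0.75 ± 0.13). None of the 13 inhibitors and traffic genes passed. Of 13 membrane partners, SLC3A2 (log2 -0.93 ± 0.12) and CD81 (log2 -0.40 ± 0.10) fell and SDC1 rose (log2 0.40 ± 0.10). The edgeR adjusted p-values of these partner genes ran from 2.9e-06 to 0.021.

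Among the members fitted in every course, loss of label over the chase gave the longest half-lives for ITGA3 and ITGB5. The T>C rate of a gene is the share of its covered T bases that read as C, and the half-life came from a fit of that rate, less the unlabelled background, to exp(-Kt) in each course. The medians over all fitted genes were 4.34 and 5.06 h in the knockdown courses and 4.66 and 4.12 h in the overexpression courses. Of the 10 members, 4 were fitted in all 4 courses: ITGA3, ITGA5, ITGA6 and ITGB5. Each fit rests on the share of label, which also falls when unlabelled RNA is added. The rise of ITGA2, ITGA6 and ITGB8 over the chase therefore bears on their fits, by an amount that was not tested. Growth of the cells adds unlabelled RNA as well, and the fits were not corrected for it. Per the study the large cells took longer to double than the small cells. The part of growth in the half-lives and in their line differences was not tested.

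**Figure D4:**
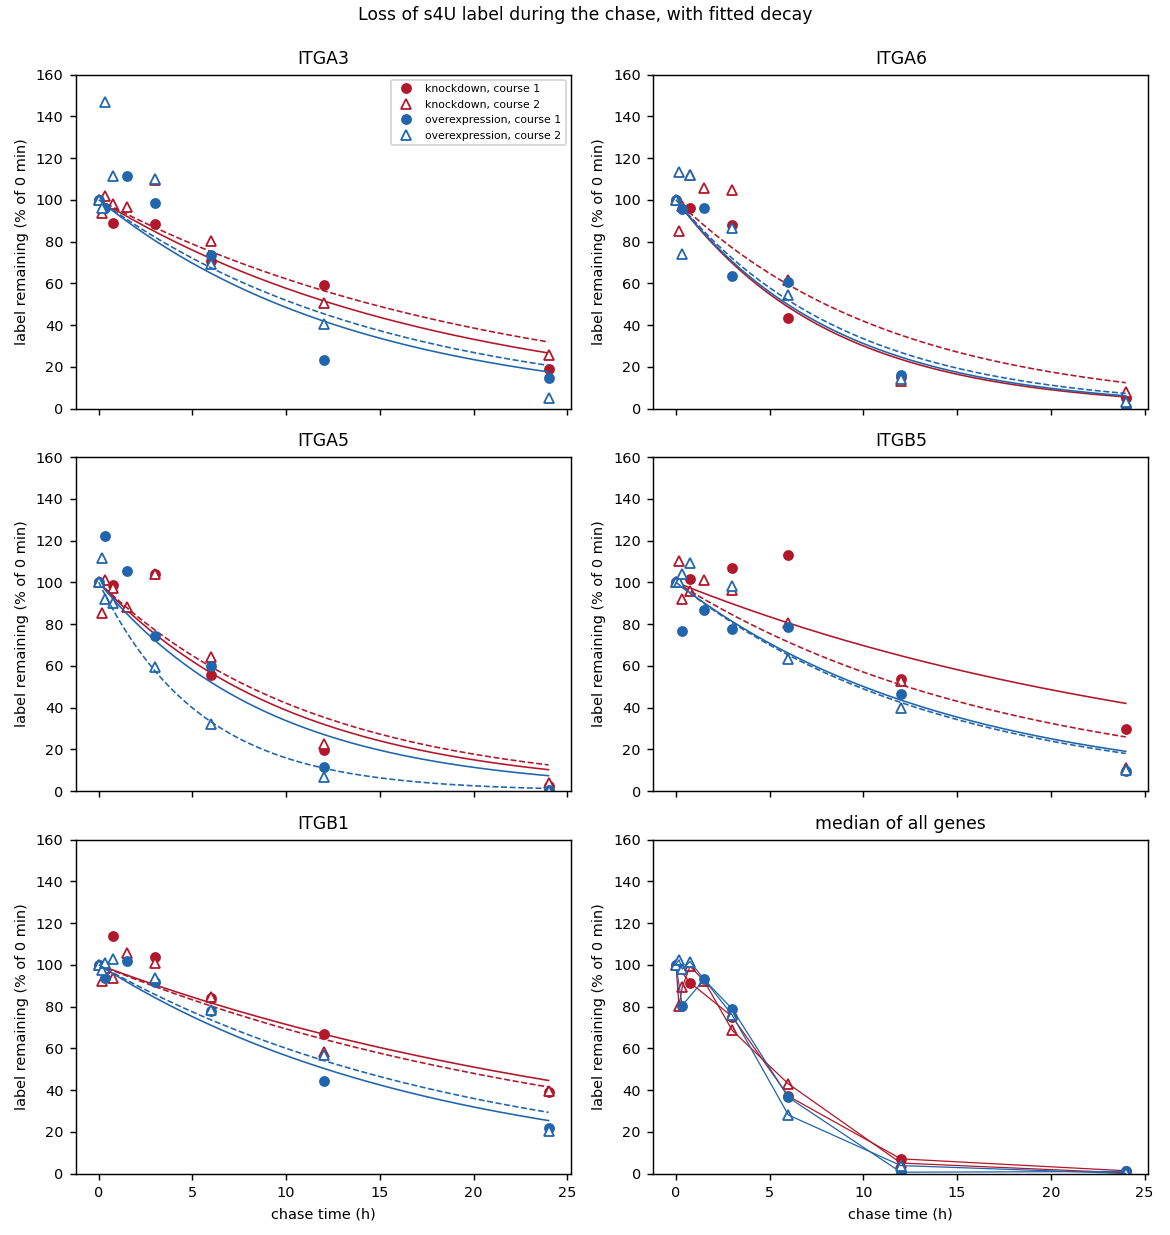
Label remaining as a percentage of the 0 min T>C rate (y axis) against chase time in h (x axis) for 5 subunits and for the median gene, with red for the knockdown line, blue for the overexpression line, filled circles and solid lines for course 1 and open triangles and dashed lines for course 2. Curves are the fitted exponentials, except in the last panel, where lines join the medians. At 12 h ITGB1 kept 44.1% to 66.8% of its label, where the median gene kept 0.636% to 7.04%.

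ITGA3 was labelled at 0.65%, 0.61%, 0.71% and 0.65% of covered T bases at 0 min in knockdown courses 1 and 2 and overexpression courses 1 and 2, over a background of 0.007% to 0.044% in the unlabelled libraries. After 360 min it kept 70.9%, 80.1%, 73.4% and 69.4% of that label, against medians of 28.0% to 42.9% over all genes. Its half-lives were 12.6 and 14.5 h in the knockdown courses and 9.56 and 10.5 h in the overexpression courses, longer than those of 93.3% to 96.7% of the fitted genes in each course. Both knockdown values of ITGA3 lay above both overexpression values, but the log2 difference of 0.43 ± 0.30 (SE) did not pass (limma adjusted p = 0.68). At 720 min, the library of overexpression course 1 that stood apart gave ITGA3 a remaining label of 23.4%, against 40.5% to 59.2% in the other courses. The log2 difference of ITGA3 was 0.25 without that library and 0.18 with 720 min left out of all courses (limma adjusted p of 0.94 and 0.93).

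ITGB5 gave half-lives of 19.2 and 12.3 h in the knockdown line and 10.0 and 9.70 h in the overexpression line, longer than 93.2% to 98.3% of fitted genes (log2 difference 0.64 ± 0.34 SE, limma adjusted p = 0.64). ITGA5 gave 7.29 and 8.002 h against 6.37 and 3.76 h (log2 0.64 ± 0.36 SE, adjusted p = 0.64). ITGA6 gave 5.76 and 7.96 h against 5.94 and 6.33 h, overlapping between the lines and longer than 67.4% to 78.8% of fitted genes (log2 0.14 ± 0.32 SE, adjusted p = 0.89). With 1 course left out, the log2 difference ran from 0.26 to 1.02 for ITGA5 and from 0.32 to 0.96 for ITGB5, and none passed. For ITGA3, ITGA5 and ITGB5 both knockdown courses were longer than both overexpression courses, as they were for 33.2% of all genes. Over all 3314 genes fitted in 4 courses limma called none (0.0%), 256 had an unadjusted p under 0.05, and the median log2 difference was 0.20, toward longer half-lives in the knockdown line.

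ITGB1 has no value in that fit because its intervals exceed the limit of 10% multimapped reads. With all intervals kept, its label at 0 min was 0.65%, 0.66%, 0.84% and 0.76%, and it kept 84.0%, 84.4%, 77.9% and 78.1% after 360 min. Its half-lives were then 20.6 and 18.9 h in the knockdown line and 12.1 and 13.6 h in the overexpression line (19.7 ± 1.2 h against 12.8 ± 1.0 h, SD, n = 2 courses each). The groups did not overlap, but the log2 difference of 0.62 ± 0.28 (SE) did not pass in the fit across all genes (limma adjusted p = 0.63).

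ITGAV was fitted in 1 course of each line, at 14.5 h in knockdown course 2 and 9.37 h in overexpression course 2. In the other courses its label scattered too much for a fit: in knockdown course 1 it read 74.8% of the 0 min label at 180 min and 137% at 360 min. ITGA2, with 221 to 994 reads at 0 min, was fitted at 4.51 h in knockdown course 1 and 2.09 h in overexpression course 2. In knockdown course 2 the T>C rate of ITGA2 was 0.059% at 10 min (Wilson 95% interval 0.034% to 0.10%) and 1.32% at 20 min (1.16% to 1.497%), so libraries differed far beyond the counting error that these intervals cover. ITGB8, with 37 to 152 reads at 0 min, was fitted at 1.39 h in knockdown course 1 and 1.38 h in overexpression course 1, from 11 and 5 conversions at 0 min. In knockdown course 2 it held 0 conversions of 3710 covered T bases at 0 min, which allows a rate of up to 0.0809% (3 counts). The T>C rates of ITGA4 and ITGB3 rest on too few reads for any fit. No member that was fitted in fewer than 4 courses was tested between the lines.

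**Figure D5:**
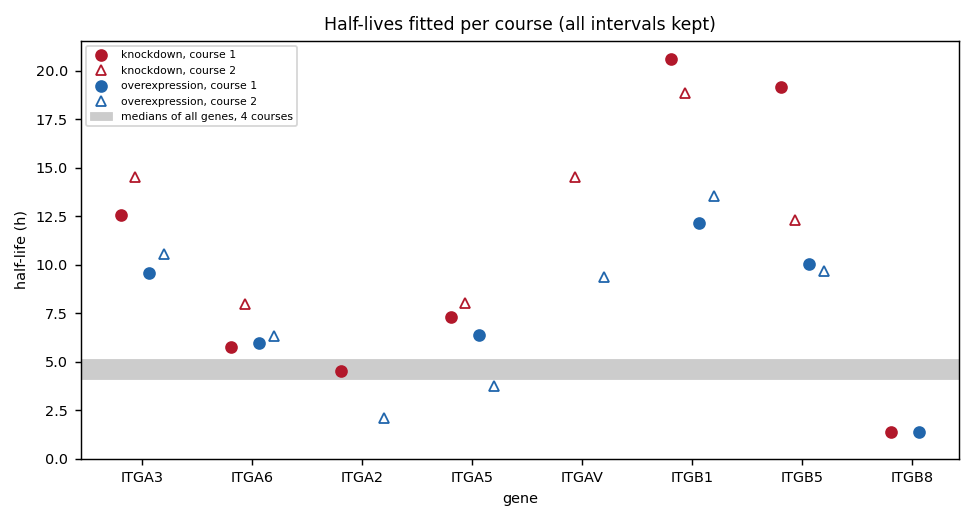
Half-lives in h (y axis) of the 8 subunits with at least 1 fitted course (x axis), with all intervals kept so that ITGB1 is included. Each point is 1 course, red for the knockdown and blue for the overexpression line, and the grey band spans the 4 course medians over all genes in the fit without multimapped intervals, 4.12 to 5.06 h. ITGB8 lies below the band and ITGA3, ITGA6, ITGAV, ITGB1 and ITGB5 above it.

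In label content at 0 min, after background subtraction, none of the 6 members tested passed between the lines. ITGAV had 0.46% and 0.66% in the knockdown line against 1.15% and 0.83% in the overexpression line (log2 -0.83 ± 0.32 SE, limma adjusted p = 0.81). ITGA6 had 0.92% and 0.86% against 1.20% and 1.05% (log2 -0.34 ± 0.22 SE, adjusted p = 0.84), and ITGB5 0.64% and 0.65% against 0.99% and 0.71% (log2 -0.38 ± 0.27 SE, adjusted p = 0.84). For these 3 the overexpression courses were above the knockdown courses without overlap, as in 24.8% of all genes. ITGA3, ITGA5 and ITGA2 gave log2 values of -0.082, -0.093 and -0.25. Over all 8592 genes limma called none (0.0%), 521 had an unadjusted p under 0.05 and the median was -0.090.

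The profiles of the members over the 34 libraries were set beside those of 8390 other genes of at least 10 CPM, by the root mean square difference of centred log2(CPM + 1). ITGB1 was closest to CSTB (0.13), ITGAV to TFG (0.17), ITGB5 to WSB2 (0.18), ITGA3 to FKBP1A (0.19) and ITGA5 to TPM2 (0.21). ITGA6 was closest to HHIP (0.28) and ITGA2 to STC1 (0.44), the members with the largest chase changes among those of at least 10 CPM. ITGA4, ITGB3 and ITGB8, whose mean lay under 10 CPM, were closest to TRAF3IP1 (0.34), HNRNPA3 (0.39) and TSC22D1 (0.49). Those differences were close in size to the variation of their own low profiles (0.45, 0.54 and 0.75).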

How the data were processed

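SLAM-seq was done in 34 libraries of 75 ng RNA each, read for 100 nt. Per the file headers the authors' tables came from SLAMdunk 0.4.3, which on hg38 gave deposited raw counts of reads, multimapped reads, covered T bases and T>C conversions in 71668 3′ UTR intervals. No annotation release is named in the sources used here. The deposited CPM, scaled to mapped reads, served only to recover mapped reads. The deposited conversion rates are fractions (conversions per covered T). Reads carry no molecular identifiers, so intervals cover counting error only.

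Intervals were summed per symbol, and 1168 that list several genes were left out. Groups came from the titles. Abundance was tested with edgeR 4.0.16 (quasi-likelihood, TMM, filterByExpr), and half-life and label content with limma 3.58.1 on log2 values, 2 courses against 2. Benjamini-Hochberg adjustment ran over every gene tested (threshold 0.05). SE is the absolute log2 value over the root of F. Half-life fits needed at least 1 CPM of mapped reads, 4 time points, an R2 of at least 0.6 and intervals with at most 10% multimapped reads. The edgeR tests and the limma test of half-life were tested on simulated data. There edgeR recovered 73.4% of 1-unit log2 changes between the lines (12959 genes), 38.7% for the label effect (11655 genes) and 21.3% for the line difference in the chase change (12046 genes). DESeq2 1.42.0, other filters, left-out courses and a replicate block were alternatives. Sequences were read from hg38, where T counts equalled the deposited T content in 16793 of 16793 intervals.

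The members and lists were chosen with earlier results of these data known. All members were named. Of the other subunits those that passed the filter, and of each partner list up to 4 genes with the lowest adjusted p and the same direction in all courses, were named. The 4 ligands lower in the knockdown line were named as well. RPE65, OTX2, MITF, keratins, EPCAM, CDH1, VIM, CDH2 and TAGLN were named as cell type markers. The profile match was 1 gene per member.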

Additional observations from a re-analysis of the deposited data

How the results depend on the processing

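Leaving out courses, changing the scaling, the filter or the tool, or dropping multimapped intervals gave 6 to 9 members that differed between the lines, and the calls of ITGA2, ITGA3, ITGA5, ITGA6, ITGB1 and ITGB5 held in each alternative that tested them. Genes called at 360 min were 209 with DESeq2 and 193 with no filter on low counts (2 members in each) and 26 to 165 with 1 course left out. At 1440 min they were 849 with DESeq2, 281 to 348 with 1 course left out, and 226 and 76 in the knockdown and overexpression lines alone (0 members in the latter, an alternative chosen after seeing the data). The label effect gave 2 genes with DESeq2 and 14 with no filter. The difference of the chase change gave 9 with DESeq2, 16 with no filter, 3 to 5 with 1 course left out and 19 with the replicate block. The replicate block gave 5251 genes between the lines, ITGAV among them (log2 0.43, adjusted p = 5.7e-05), in a fit of 4 course sums that leaves 1 residual degree of freedom. Between the lines, replicate numbers were not taken as pairs, since no label ties them to a shared batch. The replicate differences of the lines did correlate across genes (r of 0.13 to 0.35 at 6 samples). In the chase comparisons the block was the course, whose libraries share line and replicate number. That block brought ITGA5 past the threshold at 1440 min under edgeR (log2 -0.33, adjusted p = 0.032). Blocking changed no other member's call.

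Reversed signs were found only in values that missed the threshold. ITGA4 between the lines became 0.28 without the unlabelled libraries, 0.55 without the 720 min libraries and 1.21 without both (chosen after seeing the data), and ran from -1.58 to 0.66 with 1 course left out. With 1 course left out, the 360 min change ran from -0.10 to 0.029 for ITGA3, from -0.11 to 0.064 for ITGB1 and from -0.030 to 0.11 for ITGB5. The 1440 min change ran from -0.17 to 0.063 for ITGAV, from -0.062 to 0.080 for ITGA3, from -0.0073 to 0.088 for ITGB1 and from -0.020 to 0.23 for ITGB3. It was -0.0012 for ITGA3 without multimapped intervals and -0.063 in the knockdown line alone, and 0.16 for ITGAV and -0.067 for ITGB1 in the overexpression line alone. The difference of the chase change ran from -0.29 to 0.83 for ITGA2 and from -0.52 to 0.67 for ITGB8, the half-life difference of ITGA6 from -0.091 to 0.38, and the label content difference from -0.73 to 0.23 for ITGA2, from -0.20 to 0.036 for ITGA3 and from -0.21 to 0.021 for ITGA5. Without background subtraction that of ITGA2 was 0.058. The causes were not tested. Read depth limits ITGA4, ITGB3 and ITGB8, and multimapping limits ITGB1.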
